A study of Mus musculus with 3 samples.

Results

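Heat-shock-high brown adipocyte nuclei were the adipocyte nuclei of mouse brown adipose tissue (BAT) in which transcripts of the inducible chaperones Hspa1a, Hspa1b, Dnajb1 and Hspb1 made up a large share of the RNA. They were selected on these counts. Among barcodes with no fewer than 200 genes detected and no more than 50% of molecules mitochondrial, a nucleus had to hold at least 3 unique molecular identifiers (UMIs, each a captured transcript) of Adipoq, Plin1, Pparg, Cidea and Ppara together and at least 4 times its UMIs of the endothelial genes Pecam1, Flt1, Kdr, Ptprb, Cyyr1 and Adgrl4. It also had to hold at least 4 UMIs of the 4 chaperones, making up at least 0.4% of all its UMIs. By this rule 2655 of 13605 brown adipocyte nuclei were heat-shock-high, out of 36281 nuclei kept and 44897 barcodes. They numbered 597 of 4610 in the untreated library, 1213 of 4021 in the sham library and 845 of 4974 in the denervated library.

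The study profiled nuclei from the floating layer of enzyme-digested interscapular BAT, which holds brown adipocytes and vessel fragments, after sorting with a doublet gate, on a microwell platform. The mice were adult wild-type (WT) males of the C57Bl6 strain, and tissue of several mice was pooled for the untreated and the denervated library. The groups were non-treatment (here untreated), sham operation and denervation, in which the nerves to 1 BAT lobe were cut and tissue was taken 3 days later, and for which the study's procedure also names tamoxifen, while the pooling and time of the sham operation are not given in the sources used here. With 1 library for each group, library and treatment cannot be told apart and no test between groups was possible. None was made between kinds of nuclei, since these were chosen on counts of the same nuclei, and all intervals are exact 95% intervals that cover counting error only. The tables held 9420030 to 14971579 UMIs, with a median of 428 to 859 UMIs a barcode, both lowest in the denervated library. Between 251 and 278 barcode sequences were shared by each pair of libraries, and at most 1 of them was a heat-shock-high nucleus in both.

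Hspa1a and Hspa1b encode the stress-induced HSP70 proteins, Dnajb1 an HSP40 that hands them unfolded clients, and Hspb1 the small heat shock protein HSP27. When proteins unfold, heat shock factor 1 is released from chaperones and binds heat shock elements near the starts of these genes, and their transcripts build up quickly. Brown adipocytes burn fatty acids and glucose for heat through uncoupling protein 1 (Ucp1), under control of sympathetic nerves, and also make and store lipid.

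The 4 chaperone genes, whose values made up the selection and are given as a description, differed in weight between libraries. Levels are given in CPM, UMIs per 1000000 of a group's UMIs. For the 4 chaperones in this paragraph all UMIs were counted, and elsewhere those of the 4 chaperones were left out of the total. In heat-shock-high nuclei of the untreated, sham and denervated libraries, in that order throughout, Hspa1a stood at 3918, 2825 and 2544 CPM, against 118, 115 and 212.5 CPM in the other brown adipocyte nuclei. Hspa1b stood at 3785.5, 3668 and 2587 CPM against 161, 160.0 and 223 CPM. Dnajb1 stood at 1259, 3104 and 791 CPM against 83.9, 117 and 69.1 CPM, and Hspb1 at 2237, 4184 and 2896 CPM against 195, 219 and 267 CPM. By CPM, Dnajb1 and Hspb1 thus stood highest in the sham library and Hspa1a in the untreated library. Of the chaperone UMIs, Dnajb1 gave 11.2%, 22.5% and 8.97%, Hspb1 20.0%, 30.4% and 32.8%, Hspa1a 34.98%, 20.5% and 28.8% and Hspa1b 33.8%, 26.6% and 29.3%. Hspa1a (chr17:34969190-34972156, minus strand, GRCm38) and Hspa1b (chr17:34956436-34959238, minus strand) are neighbours whose coding sequences are 99.43% identical, whereas their 3′ UTRs are 48.09% identical, so the split between them is uncertain for reads from the coding part. Dnajb1 lies at chr8:83608193-83612653, plus strand, and Hspb1 at chr5:135887919-135889563, plus strand.

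Single nuclei varied widely. The median heat-shock-high nucleus held 13, 17 and 7 chaperone UMIs, or 0.977%, 1.31% and 0.839% of its UMIs, and the highest nucleus held 64, 95 and 39 UMIs, with the highest share at 5.42%, 6.14% and 3.54%. All 4 genes were detected in 27.8%, 59.2% and 16.0% of heat-shock-high nuclei and only 1 of them in 3.02%, 0.907% and 4.26%, at median depths of 1215, 1289 and 815 UMIs. In endothelial nuclei, picked by the reversed marker limits, that met the same chaperone limits, Dnajb1 gave 3.37%, 3.75% and 2.97% of the chaperone UMIs, below its share in brown adipocyte nuclei of each library, while Hspb1 gave 38.6%, 29.9% and 32.2%.

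**Figure D1:**
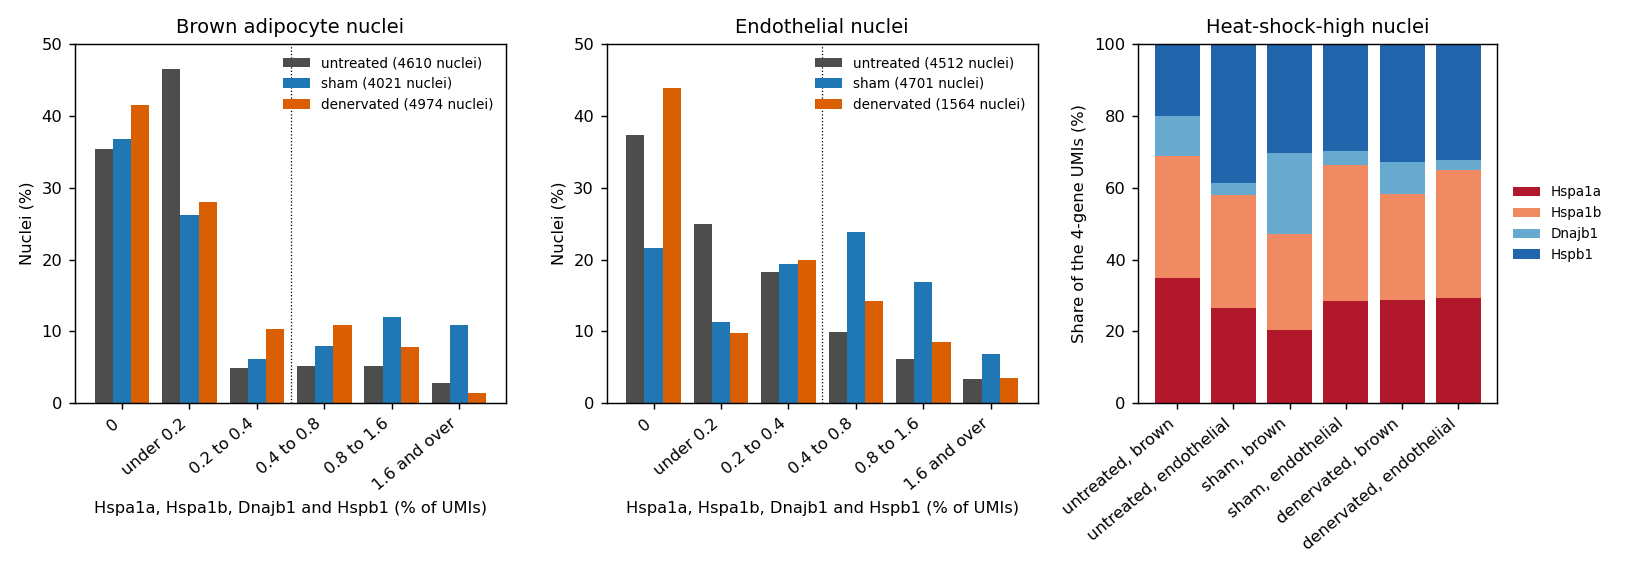
Percent of nuclei (y axis; left, brown adipocyte; centre, endothelial) in each range of the summed Hspa1a, Hspa1b, Dnajb1 and Hspb1 UMIs as a percent of the nucleus's UMIs (x axis), by library, and (right) the percent of these UMIs from each of the 4 genes in nuclei that met both chaperone limits. The dotted line marks the 0.4% limit of the rule. Nuclei at 1.6% and over were 10.9% of brown adipocyte nuclei in the sham library and 2.80% and 1.45% in the untreated and denervated libraries, and the Dnajb1 band was narrower in endothelial than in brown adipocyte nuclei of each library.

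Heat-shock-high nuclei made up 12.95% (11.99 to 14.0), 30.2% (28.8 to 31.6) and 17.0% (16.0 to 18.1) of brown adipocyte nuclei. The depth of a nucleus enters the rule, and the median brown adipocyte nucleus had 1840, 1427 and 979 UMIs. After each nucleus was thinned to 1000 UMIs, which left out 507, 836 and 2578 shallower nuclei, the shares were 11.9% (10.9 to 12.9), 28.5% (26.9 to 30.1) and 10.7% (9.48 to 11.99). The sham library stayed highest, and the intervals of the untreated and denervated libraries then overlapped. The same chaperone limits were met by 13.8%, 37.0% and 13.6% of endothelial nuclei, with medians of 723.5, 608 and 429.5 UMIs, and after thinning by 14.1%, 55.8% and 27.7% of the 984, 992 and 94 nuclei deep enough. The sham library was therefore also highest in that cell type.

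The limit cut a continuous range. Just inside it, at 0.40 to 0.45%, lay 31, 48 and 39 nuclei with 1922, 1576 and 1921 CPM of Hsp90aa1, a chaperone the rule did not use, and just outside, at 0.35 to 0.40%, lay 30, 37 and 33 nuclei with 1292, 1668.5 and 1646 CPM. In all, 221, 146 and 94 brown adipocyte nuclei held at least 4 chaperone UMIs but fell short of 0.4%, those just outside the limit included.

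To ask what else set these nuclei apart, each library's heat-shock-high nuclei were compared with its brown adipocyte nuclei that held no UMI of the 4 chaperones, drawn to equal numbers within narrow ranges of UMI count. This gave 564, 1105 and 845 nuclei of each kind and left out 33, 108 and 0 heat-shock-high nuclei. Median UMIs were then 1229.5 against 1241, 1306 against 1330 and 815 against 829, and heat-shock-high nuclei held fewer detected genes, 796 against 845, 796 against 881 and 581 against 611. Mitochondrial UMIs were 3.41% against 3.48%, 6.21% against 6.56% and 1.996% against 1.79%. Of 21214 genes in the 3 tables, 2961 had at least 100 UMIs over both kinds of nuclei in each library and were not used by the rule. A gene was called higher or lower where its log2 ratio reached 1 or -1, a 2-fold difference. Because the minimum was set over both kinds of nuclei, a gene sparse in the comparison nuclei passed only where it was high in heat-shock-high nuclei, so counts and medians over the genes that passed are descriptions and lean to the higher side for such lists.

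By this measure 52 genes (1.76% of those compared) were higher in the untreated library, 118 (3.99%) in the sham library and 92 (3.11%) in the denervated library. Lower genes numbered 16 (0.54%), 43 (1.45%) and 57 (1.93%). In all 3 libraries 31 genes (1.05%) were higher and 2 (0.0675%) lower. At shares this low, a list with no gene called in all 3 libraries is near the share over all genes. The median log2 ratio of all genes compared was 0.015, -0.11 and -0.037, and 1534, 1104 and 1375 of the 2961 were above 0. Of the 31 higher genes, 7 were other chaperones and 12 immediate early genes.

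**Figure D2:**
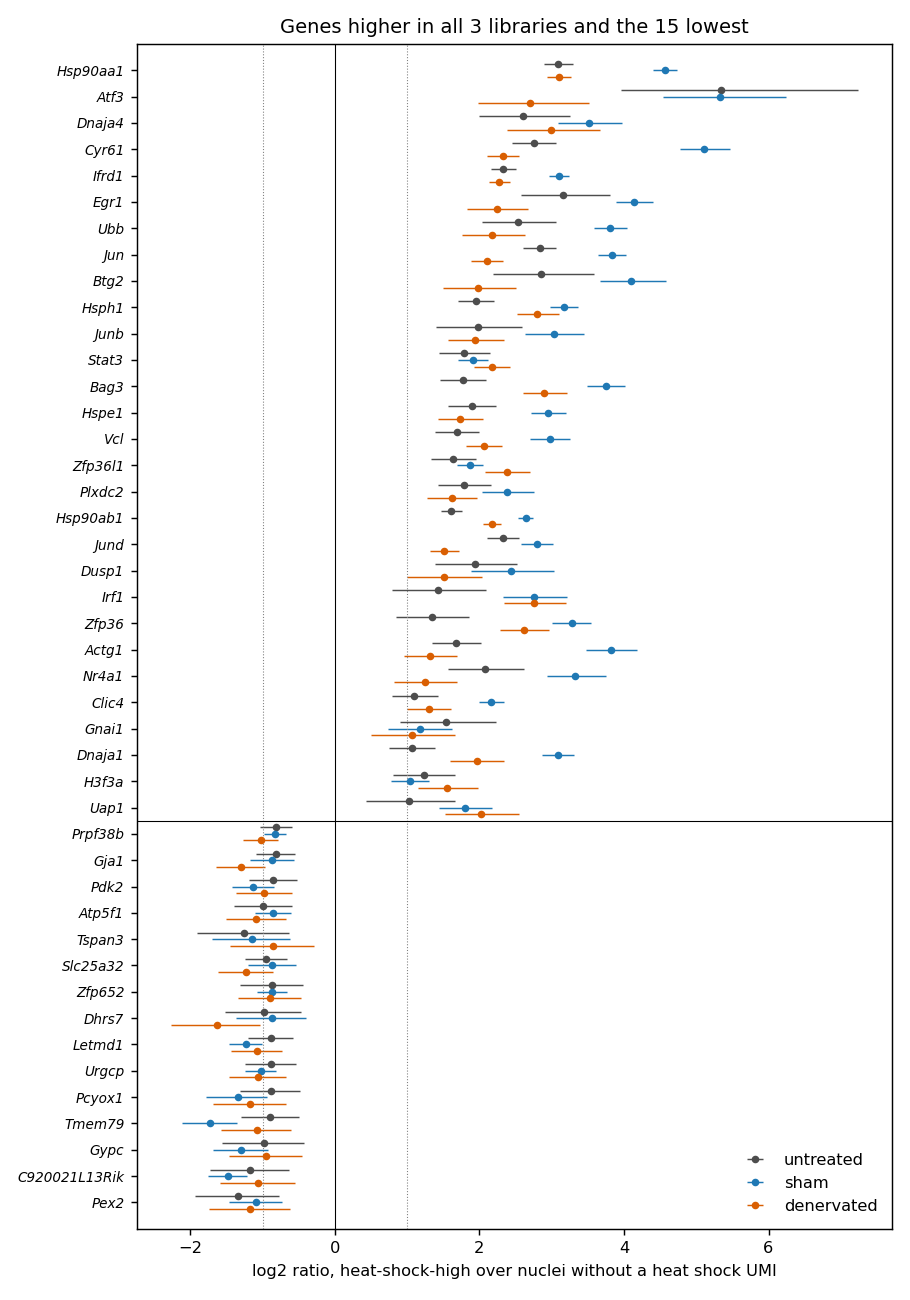
Log2 ratio (x axis) of heat-shock-high brown adipocyte nuclei over matched nuclei without a heat shock UMI, for the genes reported here among the 31 at 1 or more in all 3 libraries (upper block) and the 15 genes that stayed lowest over the libraries (lower block). Points are libraries, bars exact 95% intervals for counting error, and dotted lines mark 1 and -1. Hsp90aa1 heads the list at 3.09, 4.57 and 3.10, and only Pex2 and C920021L13Rik are at -1 or less in each library.

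Other chaperones accompanied the 4 genes of the rule. Of 34 listed, 22 had enough UMIs, and 7 of these (Hsp90aa1, Dnaja4, Hsph1, Bag3, Hspe1, Hsp90ab1 and Dnaja1) were higher in all 3 libraries and none lower. Of all 2961 genes compared 1.05% were higher and 0.0675% lower. The median log2 ratio of the 22 was 0.80, 1.49 and 0.95, with 18, 16 and 19 of them above 0. Of all 2961 genes compared, 1534, 1104 and 1375 were above 0. The sham median depended on the setting, at 0.68 without matching, 0.65 with a minimum of 40 UMIs and 2.65 without nuclei that held a marker UMI of other cell types. These medians covered 26, 28 and 11 chaperones in place of the 22, so the genes also changed with the setting. Summed, the listed genes went from 4516 to 11058 CPM in the untreated library, from 3501 to 17148 CPM in the sham library and from 4208 to 13992 CPM in the denervated library between nuclei without and with high heat shock transcripts.

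Hsp90aa1 (chr12:110690605-110702728, minus strand), the inducible cytosolic HSP90, had the largest log2 ratio among the 22 in each library. It stood at 305, 197 and 430.4 CPM in nuclei without a heat shock UMI and at 2594, 4668 and 3686 CPM in heat-shock-high nuclei. The log2 ratios were 3.09 (2.89 to 3.29), 4.57 (4.402 to 4.74) and 3.10 (2.93 to 3.27), so the lowest heat-shock-high level was several times the highest level without heat shock UMIs. Its constitutive relative Hsp90ab1 went from 713, 601 and 777 to 2178, 3741 and 3504 CPM, with log2 ratios of 1.61, 2.64 and 2.17.

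Dnaja4, an HSP40 partner of HSP70, went from 34.6, 31.1 and 31.3 to 209.6, 356 and 249 CPM, with log2 ratios of 2.60, 3.52 and 2.99. Hsph1, a nucleotide exchange factor for HSP70, went from 229, 161 and 151 to 886, 1451 and 1056 CPM (1.95, 3.17 and 2.80). Bag3, which routes HSP70 clients to autophagy, went from 142, 84.8 and 134 to 486, 1142 and 1000.2 CPM (1.77, 3.75 and 2.90). For these genes and Hsp90aa1 the log2 ratio was highest in the sham library. The mitochondrial co-chaperonin Hspe1 had log2 ratios of 1.89, 2.95 and 1.74, and its partner Hspd1, which lies head to head with it, 0.60, 2.03 and 1.04. Dnaja1, another HSP40, had 1.06, 3.08 and 1.96.

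Not all chaperones were higher. The constitutive HSP70 Hspa8 had log2 ratios of 1.14, 2.002 and 0.58, the collagen chaperone Serpinh1 0.99, 2.14 and 1.03 and the adaptor Stip1 1.34, 0.98 and 2.004, each short of 2-fold in 1 library. The small heat shock protein Hspb8 had 0.34, 2.22 and 0.75, the HSP40 Dnajb4 1.011, 0.22 and 0.60, the HSP110 Hspa4l 0.41, -0.20 and 1.005 and the HSP90 co-chaperone Ptges3 0.20, 0.90 and 0.90. Fkbp4 (0.18 to 0.54), Hspa4 (0.35 to 0.52), Hspa14 (-0.35 to 0.38), Chordc1 (-0.31 to 0.42) and Dnajb6 (-0.15 to -0.030) stayed under 2-fold in each library. Hspa9, the mitochondrial HSP70, was at -0.53, -0.26 and -0.69, and the HSP40 Dnaja2 at -0.48, -0.43 and -0.46. The other 12 listed chaperones had too few UMIs, among them Cryab with 2, 6 and 2 UMIs in the comparison nuclei and 5, 15 and 10 in heat-shock-high nuclei.

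Promoter sequence was read for the leading chaperones from RefSeq on GRCm38.p6, from 250 bases before to 50 after each annotated start. The letters GAANNTTC and TTCNNGAA, a pair of facing units of a heat shock element that read alike on both strands, were searched, and overlapping matches were allowed. They occurred in 4946 of 32851 windows (15.06%) and in a window of 290 of 2329 compared genes that had one (12.45%). Of the 31 higher genes 25 had a window, and 8 of these (32%) held the letters. They included all 5 higher chaperones with a window (Dnaja1, Dnaja4, Hspe1, Hsph1 and Bag3), while of all listed chaperones with a window, called or not, 13 of 28 held them (46.4%). They also included 2 of 11 higher immediate early genes (Jun and Cyr61). Of the rule's genes, Hspa1a, Hspa1b and Hspb1 held them and Dnajb1 did not. A match describes letters and is not a measured binding site. The windows of Hspa1a and Hspb1 are shown as genes of the rule, and those of Hspe1 and Dnaja4 as higher genes the rule did not use, each on its gene's strand with the matched letters in capitals.
Hspa1a, chr17:34972107-34972406, minus strand: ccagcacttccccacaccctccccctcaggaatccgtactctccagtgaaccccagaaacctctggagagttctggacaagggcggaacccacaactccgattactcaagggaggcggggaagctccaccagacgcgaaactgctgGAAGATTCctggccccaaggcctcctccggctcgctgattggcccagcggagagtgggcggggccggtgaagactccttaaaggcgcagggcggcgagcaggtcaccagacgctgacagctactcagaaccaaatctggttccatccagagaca
Hspb1, chr5:135887669-135887968, plus strand: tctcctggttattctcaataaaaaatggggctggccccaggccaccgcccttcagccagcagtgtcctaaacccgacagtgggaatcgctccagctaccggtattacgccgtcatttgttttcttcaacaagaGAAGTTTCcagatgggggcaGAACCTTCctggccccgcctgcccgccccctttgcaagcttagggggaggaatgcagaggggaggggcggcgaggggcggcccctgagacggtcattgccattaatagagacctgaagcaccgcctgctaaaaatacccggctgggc
Hspe1, chr1:55087898-55088197, plus strand: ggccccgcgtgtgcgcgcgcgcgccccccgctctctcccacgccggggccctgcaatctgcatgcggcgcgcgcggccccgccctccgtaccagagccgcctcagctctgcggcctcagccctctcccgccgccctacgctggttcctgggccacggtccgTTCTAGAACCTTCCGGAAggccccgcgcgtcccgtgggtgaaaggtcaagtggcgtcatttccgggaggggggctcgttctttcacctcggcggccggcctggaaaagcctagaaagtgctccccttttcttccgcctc
Dnaja4, chr9:54699309-54699608, plus strand: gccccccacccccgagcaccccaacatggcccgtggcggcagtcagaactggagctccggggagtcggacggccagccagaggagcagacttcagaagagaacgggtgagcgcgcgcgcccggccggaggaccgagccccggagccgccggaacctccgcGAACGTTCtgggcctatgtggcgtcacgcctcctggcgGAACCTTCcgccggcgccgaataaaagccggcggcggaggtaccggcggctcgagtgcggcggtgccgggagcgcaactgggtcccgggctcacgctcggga

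Counted from the start, the Hspa1a match began at -104, and the Hspa1b window, 98.67% identical, held it at the same place. Hspb1 had matches at -117 and -97, Hspe1 had 3 overlapping ones at -89, -84 and -79, and Dnaja4 had matches at -90 and -52 in its second window. Of all windows, 1.96% held 2 or more matches. The window of Hsp90aa1 was not analysed here.

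Immediate early genes, which serum, stress or nerve signals switch on without new protein synthesis, were higher as a sum in heat-shock-high nuclei of each library. Of 39 listed, 16 had enough UMIs, and 12 of these were higher in all 3 libraries, against 31 (1.05%) of all 2961 genes compared. The median log2 ratio was 1.96, 2.91 and 1.97, against 0.015, -0.11 and -0.037 over all genes compared. Of the 12, Atf3, Btg2, Egr1, Irf1, Junb, Dusp1 and Nr4a1 had 4, 21, 26, 29, 32, 35 and 39 UMIs in the untreated comparison nuclei. They passed the minimum there through their UMIs in heat-shock-high nuclei, as Atf3, Btg2 and Dusp1 did in each library. The count of 12 and the medians thus lean to the higher side and are descriptions only. The sum over the 38 listed genes in the tables does not depend on the minimum. It went from 2246, 1595 and 2613 CPM in the comparison nuclei to 7785, 13277 and 9067 CPM in heat-shock-high nuclei. The sham library thus had the lowest sum in nuclei without a heat shock UMI and the highest in heat-shock-high nuclei.

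Atf3, a stress-induced transcription factor, had 4, 13 and 18 UMIs in all comparison nuclei together and 159, 513 and 115 in heat-shock-high nuclei. Its log2 ratios were 5.35 (3.96 to 7.24), 5.32 (4.54 to 6.24) and 2.71 (1.98 to 3.51). Jun, a core part of the AP-1 transcription factor, went from 238, 153 and 263 to 1696, 2184 and 1129 CPM (2.83, 3.84 and 2.10). Its relatives Junb (1.98, 3.03 and 1.95) and Jund (2.32, 2.79 and 1.51) were higher too, so all 3 Jun genes differed in the same direction. Cyr61, a secreted matrix protein, had log2 ratios of 2.75, 5.11 and 2.33, the transcription factor Egr1 3.16, 4.15 and 2.24 and the antiproliferative Btg2 2.85, 4.10 and 1.99. The nuclear receptor Nr4a1 had 2.08, 3.33 and 1.25 and the MAP kinase phosphatase Dusp1 1.94, 2.44 and 1.504. In these 5 genes the sham library had the highest ratio. Zfp36l1 (1.64, 1.87 and 2.38) and Zfp36 (1.34, 3.27 and 2.62), whose proteins speed the decay of AU-rich mRNAs, and the interferon regulatory factor Irf1 (1.42, 2.75 and 2.76) were instead lowest in the untreated library.

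The 4 others with enough UMIs, named after their values were seen, were the transcription factors Fosl2 (1.12, 1.82 and 0.55), Klf6 (0.81, 2.31 and 1.79) and Nfil3 (0.39, 0.84 and 0.46) and the small GTPase Rhob (-0.12, 0.48 and 0.16). Fos and Fosb, the AP-1 partners of Jun, had under 100 UMIs in the untreated library. Fosb had 75, 1481 and 199 UMIs in heat-shock-high nuclei against 16, 43 and 19 in the comparison nuclei. Fos had 82, 1338 and 112 against 13, 70 and 28 UMIs. Both were thus most abundant in heat-shock-high nuclei of the sham library.

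Genes of ubiquitin and the proteasome had no subunit of the proteasome called in all 3 libraries. Of 36 listed genes, 17 had enough UMIs. Ubb, which encodes ubiquitin and was higher in all 3 libraries, went from 51.9, 114 and 71.7 to 301, 1599 and 325 CPM (2.54, 3.81 and 2.18). The median of the list was 0.11, -0.22 and 0.19. Sqstm1, an autophagy receptor for ubiquitin, had 0.58, 0.68 and 1.56, and Vcp, which extracts ubiquitin-bound proteins, 0.13, -0.090 and -0.48. Of the proteasome subunits, Psmd13, named after its values were seen, passed 2-fold in the sham library (0.34, 1.22 and 0.57).

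Genes of the unfolded protein response of the endoplasmic reticulum had medians near that of all genes. None of its 10 genes with enough UMIs, of 24 listed, was called in all 3 libraries, and the medians were 0.069, -0.038 and 0.18. The lumenal HSP70 Hspa5 had -0.021, 0.44 and -0.16, the lumenal HSP90 Hsp90b1 0.13, 0.41 and 0.46 and the transcription factor Ddit3 0.22, -0.51 and 0.13. Herpud1, which takes part in the degradation of unfolded proteins and was named after its values were seen, had -0.69, -0.82 and -1.19 and was the only one called lower in the denervated library. Atf4, which drives Ddit3, was at -0.56, -0.43 and -0.55. The heat shock factor genes Hsf1, Hsf2, Hsf4 and Hsf5 and the factor-binding protein gene Hsbp1 had too few UMIs to be called. Summed, these 5 had 77, 160 and 86 UMIs in the comparison nuclei and 79, 153 and 56 in heat-shock-high nuclei. Of these UMIs Hsbp1 gave 28, 61 and 32 in the former and 25, 41 and 25 in the latter. Of 8 genes of the cytosolic chaperonin Tcp1 alone had enough, with -0.0043, -1.25 and -0.36. Of 10 p53 targets 3 had enough, with medians of -0.12, -0.29 and 0.16, the highest being the cell cycle inhibitor Cdkn1a at 0.89, 0.62 and 1.07.

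Oxidative and metal stress genes gave 4 of 12 with enough UMIs, with medians of 0.12, 0.52 and 0.44. The metallothionein Mt1 had 0.22, 1.74 and 1.30, the thioredoxin reductase Txnrd1 0.80, 1.06 and 0.69 and the peroxiredoxin Prdx1 -0.52, -0.029 and -1.24. Below the minimum and named after their values were seen, Hmox1, the heme-degrading enzyme, had 26, 70 and 82 UMIs in heat-shock-high nuclei against 4, 8 and 7 in the comparison nuclei. The metallothionein Mt2 had 28, 397 and 130 against 2, 44 and 17 UMIs. Both were higher in each library at low counts.

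Inflammatory genes differed most outside the untreated library. The 3 of 18 with enough UMIs were the acute-phase protein Hp (0.35, 1.006 and 0.92) and the NF-kappa-B regulators Nfkbia (0.31, 0.96 and 1.897) and Nfkbiz (0.83, 0.99 and 1.28), and none was called in all 3 libraries. Summed over the list, the log2 ratios were 0.44, 1.14 and 1.53. Among chemokines, named after their values were seen, Cxcl1 had 5, 67 and 274 UMIs in heat-shock-high nuclei against 1, 1 and 30 in the comparison nuclei. Cxcl10 had 0, 80 and 61 against 0, 0 and 4 UMIs and was thus at 0 in both kinds of untreated nuclei.

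Further higher genes belonged to none of these groups. Ifrd1, a transcriptional co-regulator, went from 452, 337 and 593 to 2278, 2892 and 2869 CPM (2.33, 3.10 and 2.27). Stat3, which carries cytokine signals to the nucleus, had log2 ratios of 1.79, 1.91 and 2.17, and the focal adhesion protein Vcl 1.69, 2.98 and 2.06. The cytoskeletal actin Actg1 (1.68, 3.82 and 1.32), Plxdc2 (1.79, 2.39 and 1.62), the chloride channel family member Clic4 (1.10, 2.16 and 1.30), the G protein subunit Gnai1 (1.54, 1.17 and 1.07), the histone H3f3a (1.23, 1.04 and 1.56) and Uap1 (1.03, 1.80 and 2.02), an enzyme of hexosamine metabolism, were also higher in each library. The intervals of 9 of the 31 genes (Actg1, Clic4, Dnaja1, Gnai1, H3f3a, Irf1, Nr4a1, Uap1 and Zfp36) reached below 1 in at least 1 library. Gnai1, Irf1 and Uap1 were also not among the higher genes at a limit of 0.8%, with at least 500 detected genes or against all other brown adipocyte nuclei.

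At the other end, Pex2, a peroxisomal ubiquitin ligase, went from 124, 131 and 120.0 to 49.0, 61.2 and 53.3 CPM, with log2 ratios of -1.34 (-1.93 to -0.77), -1.10 (-1.47 to -0.74) and -1.17 (-1.74 to -0.62). The antisense gene C920021L13Rik had -1.17 (-1.73 to -0.64), -1.48 (-1.75 to -1.21) and -1.06 (-1.58 to -0.55). The intervals thus reached above -1 in each library for Pex2 and in the untreated and denervated libraries for C920021L13Rik. Neither was among the lower genes at a limit of 0.8% or with at least 500 detected genes. How strand entered the counting is not given in the sources used here, so its reads may not be separable from those of an overlapping gene. The gap junction protein Gja1 (-0.82, -0.87 and -1.30), the pyruvate dehydrogenase kinase Pdk2 (-0.85, -1.13 and -0.98), the ATP synthase subunit Atp5f1 (-0.99, -0.85 and -1.09) and Letmd1, a mitochondrial inner membrane protein (-0.88, -1.23 and -1.08), were among the 15 that stayed lowest. The others were Gypc, Tmem79, Pcyox1, Urgcp, Dhrs7, Zfp652, Slc25a32, Tspan3 and Prpf38b. None of these 13 reached 2-fold in each library.

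**Figure D3:**
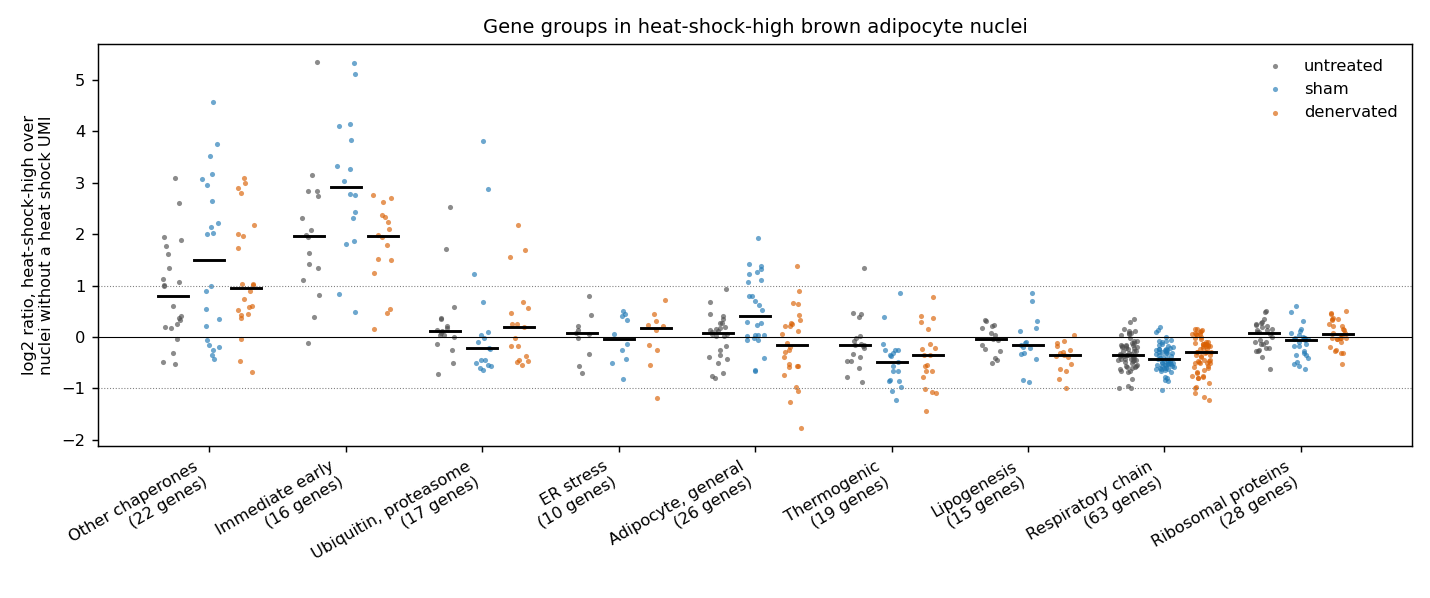
Log2 ratio (y axis) of every gene with enough UMIs in 9 gene groups, by library, for heat-shock-high over matched brown adipocyte nuclei without a heat shock UMI. Each point is a gene, black bars are medians and dotted lines mark 1 and -1. Other chaperones and immediate early genes lie mostly above 0, with medians of 0.80, 1.49 and 0.95 and of 1.96, 2.91 and 1.97 in the 3 libraries, whereas the 63 respiratory chain genes lie mostly below 0.

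By their medians, adipocyte programmes differed less than the chaperones and immediate early genes, and not alike between libraries. No gene of the thermogenic, lipogenesis or general adipocyte lists was called in the same direction in all 3 libraries. Of all genes compared 1.05% were called higher and 0.0675% lower, so a count of 0 is near the share over all genes. The 19 thermogenic genes, of 27 listed, had medians of -0.16, -0.50 and -0.36. Of those with the most UMIs, the fuel switch kinase Pdk4 had 1.34, 0.86 and 0.77 and the adrenergic receptor Adrb3 0.47, 0.40 and 0.30, while the potassium channel Kcnk3 had -0.46, -0.65 and -0.65 and the co-activator Ppargc1b -0.16, -0.84 and -0.54. Ucp1 and Kit were chosen after their values were seen. Ucp1 stood at 351, 377 and 339 CPM in the comparison nuclei and at 230, 291 and 125 CPM in heat-shock-high nuclei, with log2 ratios of -0.61 (-0.90 to -0.33), -0.37 (-0.55 to -0.19) and -1.44 (-1.79 to -1.09). It was past 2-fold in the denervated library alone, and without nuclei that held a white adipocyte marker UMI its intervals included 0 in the other libraries. Kit, the receptor for stem cell factor, stood at 293, 40.2 and 213 CPM in the comparison nuclei and at 212, 33.5 and 105 CPM in heat-shock-high nuclei, with log2 ratios of -0.46 (-0.77 to -0.16), -0.26 (-0.82 to 0.30) and -1.01 (-1.42 to -0.62), and its interval included 0 in the sham library. Without the nuclei that held a white adipocyte marker UMI, Kit had -0.33 (-0.68 to 0.0054), 0.17 (-0.52 to 0.86) and -0.68 (-1.15 to -0.21), so its sham value changed sign and none reached 2-fold.

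Of 17 lipogenesis genes 15 had enough UMIs, with medians of -0.048, -0.16 and -0.34 and 7, 5 and 1 genes above 0. Over all 2961 genes compared, 1534, 1104 and 1375 were above 0, so the untreated and sham counts were near that share. Scd1, the stearoyl-CoA desaturase, had -0.24, -0.20 and -0.66, Pnpla3, a lipid droplet acyltransferase and lipase, -0.048, -0.84 and -0.39, the fatty acid synthase Fasn -0.28, 0.12 and -0.53, and Acaca, which makes malonyl-CoA, 0.34, 0.31 and -0.11. Without nuclei that held a white adipocyte marker UMI the medians were 0.051, -0.13 and -0.12, so the denervated value was then close to the sham one. None of the 15 genes reached 2-fold in any library, against 1.76%, 3.99% and 3.11% of all genes higher and 0.54%, 1.45% and 1.93% lower.

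Of 29 general adipocyte genes 26 had enough UMIs, with medians of 0.080, 0.41 and -0.16. Car3, a carbonic anhydrase abundant in fat, had 0.92, 1.38 and 1.39, the fatty acid carrier Fabp4 0.26, 1.08 and 0.34, the lipoprotein lipase Lpl -0.39, 0.027 and -0.38 and Pck1, which makes glycerol for triglycerides, 0.36, 1.27 and -0.26. In the sham library 8 of the 26 were at least 2-fold higher, against 3.99% of all genes. None was in the untreated library (1.76% of all genes), and Car3 alone was in the denervated library (3.11%), where 3 were at least 2-fold lower (1.93%). These 3, named after their values were seen, were the transcription factor Cebpa (-1.77), the insulin-responsive glucose transporter Slc2a4 (-1.27) and the glycerol phosphate dehydrogenase Gpd1 (-1.04). Without nuclei that held a white adipocyte marker UMI the medians of the list were -0.0089, 0.29 and -0.11. Car3 then had -0.028, 1.19 and 0.97, short of 2-fold in the denervated library.

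Nuclear genes of the respiratory chain and ATP synthase, a list added after the values had been seen, were lower by a small amount. Of 76 genes 63 had enough UMIs, with medians of -0.35, -0.42 and -0.29 and 9, 3 and 10 genes above 0. Of all 2961 genes compared, 1534, 1104 and 1375 were above 0. Summed, the respiratory chain genes went from 14530 to 11767 CPM in the untreated library, from 14992 to 11438 CPM in the sham library and from 18599 to 15397 CPM in the denervated library. No gene of the list reached 2-fold in all 3 libraries. Summed mitochondrial RNAs had log2 ratios of -0.011, -0.059 and 0.17, ribosomal protein genes 0.0029, -0.073 and 0.082 and nuclear long non-coding RNAs -0.040, 0.0091 and 0.23, with Malat1, the most abundant of these, at 0.0019, 0.063 and 0.27.

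Hsp90aa1 and the immediate early genes followed the amount of heat shock transcripts. Among brown adipocyte nuclei of 800 to 2000 UMIs, Hsp90aa1 in the untreated library went from 269 CPM in nuclei with no UMI of the rule's chaperones over 855 CPM at 0.2 to 0.4% to 4397 CPM at 1.6% and over. The values were 176, 1199 and 6948 CPM in the sham library and 231, 1410 and 8156 CPM in the denervated library, the last over 22 nuclei. Nuclei just short of the rule thus already stood above those with none. Summed immediate early genes went from 2157 to 11308 CPM, from 1529 to 17547 CPM and from 2368 to 17166 CPM between the lowest and highest range. Median UMIs of the ranges ran from 897.5 to 1648.

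**Figure D4:**
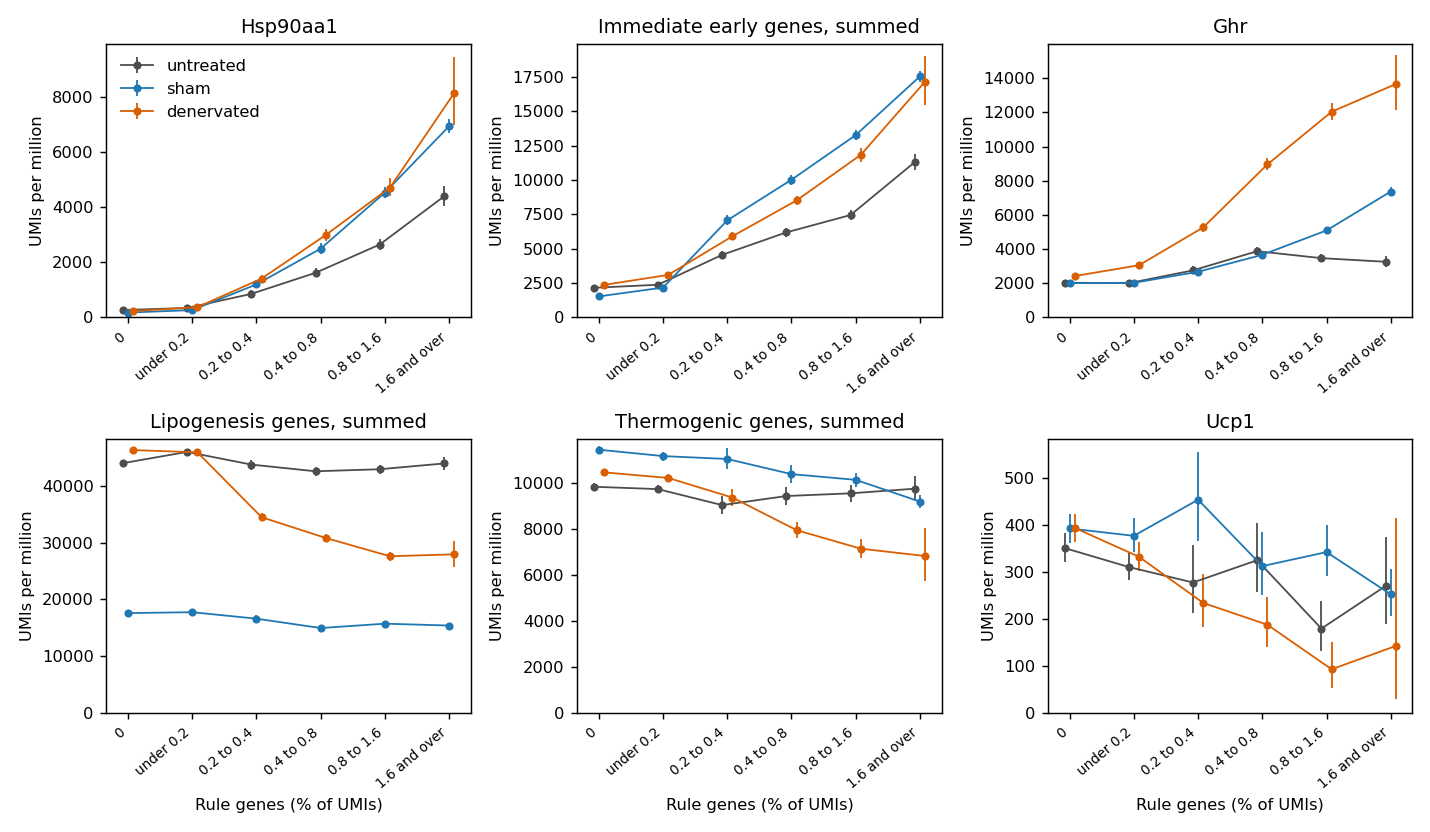
Level in CPM (y axes, each from 0) of Hsp90aa1, summed immediate early genes, Ghr, summed lipogenesis genes, summed thermogenic genes and Ucp1 in brown adipocyte nuclei of 800 to 2000 UMIs, in ranges of the 4 rule genes as a percent of UMIs (x axes). Points are libraries with exact 95% Poisson intervals. Hsp90aa1 climbs from 269, 176 and 231 CPM in the lowest range to 4397, 6948 and 8156 CPM in the highest, and summed lipogenesis genes drop most in the denervated library.

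Lipogenesis genes differed most over these ranges in the denervated library, with all nuclei included. There their sum was 46408 CPM in nuclei without a heat shock UMI and 46014 CPM under 0.2%. From 0.2% up, it was 34546, 30869, 27634 and 27978 CPM. Median UMIs of these denervated ranges were 1177, 1301, 988, 993, 1069 and 897.5, so depth differed as well. The lowest and highest ranges had 44095 and 44044 CPM in the untreated library and 17590 and 15391 CPM in the sham library. The summed thermogenic genes went from 10477 to 6828.5 CPM in the denervated library, from 11466 to 9202 CPM in the sham library and from 9849.8 to 9765 CPM in the untreated library. Ghr, the growth hormone receptor, chosen after its values were seen, went from 2422 to 13657 CPM in the denervated, from 2003 to 7365 CPM in the sham and from 2029 to 3255 CPM in the untreated library, where it was highest, at 3876 CPM, at 0.4 to 0.8%. In the denervated library the levels of Ghr and of the lipogenesis genes thus ran in opposite directions. Ucp1 went there from 394 to 92.3 CPM at 0.8 to 1.6%, with 142 CPM (29.3 to 416) from 3 UMIs in the highest range. Over the matched nuclei of that library, Ghr had a log2 ratio of 1.52, and 0.92 without nuclei that held a white adipocyte marker UMI. The lipogenesis median was -0.34, and -0.12 without those nuclei.

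Transcripts of white adipocytes moved with the selection. The markers Slc7a10, Retn, Lep, Nnat and Agt summed to 157, 319.9 and 210.0 CPM in the comparison nuclei and to 299, 717 and 578 CPM in heat-shock-high nuclei. Slc7a10, an amino acid transporter of white adipocytes, had 55, 417 and 198 UMIs in heat-shock-high nuclei against 5, 77 and 15 in the comparison nuclei. Retn, the hormone resistin, had 50, 400 and 91 against 11, 171 and 20. Lep, which encodes leptin, had log2 ratios of -0.91 (-1.44 to -0.39), -0.15 (-0.75 to 0.44) and -0.98 (-1.52 to -0.47), below 0 beyond counting error in the untreated and denervated libraries, so the markers did not move alike. Cidea, which marks brown adipocytes and was used by the rule, had 0.25, -0.73 and -0.25. At least 1 white adipocyte marker UMI was found in 16.1%, 38.5% and 23.7% of heat-shock-high nuclei, in 15.6%, 15.7% and 14.7% of the comparison nuclei at like depth, and in 3.06%, 7.06% and 5.88% of the shallower endothelial nuclei.

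The heat shock and immediate early differences were present without these nuclei. With nuclei that held a white adipocyte marker UMI left out, a setting added after the data were seen, 27 genes were higher in all 3 libraries, 23 of them among the 31, and none was lower. Hsp90aa1 then had log2 ratios of 3.54, 4.38 and 2.77, the same 22 chaperones medians of 0.64, 1.43 and 0.86 and the same 16 immediate early genes 1.96, 2.77 and 1.58. The thermogenic genes had -0.081, -0.30 and -0.21, the respiratory chain genes -0.25, -0.22 and -0.23 and the lipogenesis genes 0.051, -0.13 and -0.12, closer to 0 than with all nuclei except for the lipogenesis genes of the untreated library. Ghr had 0.45, 1.22 and 0.92, against 0.92, 1.40 and 1.52 with all nuclei, and Ucp1 -0.28 (-0.60 to 0.042), -0.16 (-0.37 to 0.045) and -1.49 (-1.90 to -1.09). Car3 had -0.028 (-0.18 to 0.12), 1.19 (1.13 to 1.25) and 0.97 (0.83 to 1.11), with an interval that included 0 in the untreated library and past 2-fold in the sham library alone.

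The other marker lists are given as summed levels in heat-shock-high nuclei against those in the comparison nuclei. The endothelial genes of the rule, capped by it, stood at 225, 259 and 219.8 against 219.5, 242 and 190.4 CPM, and 7 other endothelial genes, of which Egfl7 was at 0 in heat-shock-high nuclei of each library, at 184, 201 and 192 against 201, 172 and 158 CPM. Pericyte markers stood at 299, 706 and 319.6 against 649, 828 and 245 CPM, and smooth muscle markers at 8.17, 49.98 and 21.3 against 26.6, 16.2 and 13.0 CPM. Both were lower in heat-shock-high nuclei of the untreated library, the latter with 6 against 20 UMIs. Immune markers stood at 12.2, 16.4 and 43.9 against 11.97, 11.7 and 46.9 CPM, and Schwann cell markers at 61.2, 114 and 95.9 against 47.9, 57.0 and 52.2 CPM. Fibroblast markers were higher in heat-shock-high nuclei of each library, at 53.1, 94.0 and 98.6 against 29.3, 47.9 and 27.4 CPM. Skeletal muscle markers gave 4, 142 and 18 against 4, 8 and 11 UMIs, and 137 of those in heat-shock-high nuclei of the sham library came from the muscle actin Acta1. The part of these cell types in the differences was not tested. Among nuclei with no UMI of any endothelial, pericyte, smooth muscle, fibroblast, immune or Schwann cell marker (232, 316 and 475 of each kind), 1012 genes had enough UMIs and 19 were higher in all 3 libraries, 18 of them among the 31.

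Endothelial nuclei that met the chaperone limits were compared in the same way with endothelial nuclei without a heat shock UMI. The aim was to see which differences both cell types had. Matching kept 618, 822 and 195 of the 622, 1737 and 212 that met the limits, so more were left out than kept in the sham library. Median UMIs were 699, 506 and 524 against 692.5, 505 and 519. In the matched heat-shock-high brown adipocyte nuclei they were 1229.5, 1306 and 815, so the cell types were compared at unlike depth. Over the 31 genes the median log2 ratio was 1.79, 3.03 and 2.06 in brown adipocyte nuclei and 1.07, 1.13 and 1.13 in endothelial nuclei. In the latter 13 of the 31 were at least 2-fold higher in all 3 libraries, against 21 (0.709%) of all 2961 genes. The minimum of 100 UMIs was set on brown adipocyte nuclei alone, so some of these genes had few endothelial UMIs. Gnai1, for example, had 3 against 3 in the denervated library. Of the 13, 9 were immediate early genes and 2 chaperones (Hsp90aa1 and Hsph1). For 9 genes (Hsp90aa1, Hsp90ab1, Dnaja4, Bag3, Ifrd1, Irf1, Stat3, Vcl and Zfp36l1) the interval in brown adipocyte nuclei lay above that in endothelial nuclei in each library.

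Hsp90aa1 had log2 ratios of 1.91 (1.67 to 2.17), 1.902 (1.71 to 2.10) and 1.81 (1.44 to 2.20) in endothelial nuclei, Ifrd1 0.55 (0.042 to 1.06), 1.26 (0.71 to 1.84) and 0.27 (-0.41 to 0.96) and Stat3 0.19 (-0.12 to 0.51), 0.69 (0.41 to 0.98) and 0.52 (-0.074 to 1.12). The 12 immediate early genes had medians of 2.46, 1.79 and 1.66 there, against 2.20, 3.30 and 2.17 in brown adipocyte nuclei. The former was higher in the untreated library and lower in the others. Nr4a1 had 3.44 (2.97 to 3.94), 3.38 (2.69 to 4.14) and 2.09 (1.62 to 2.58), its interval above that in brown adipocyte nuclei in the untreated library. The 31 genes were chosen on the brown adipocyte values, and the difference between cell types was not tested.

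**Figure D5:**
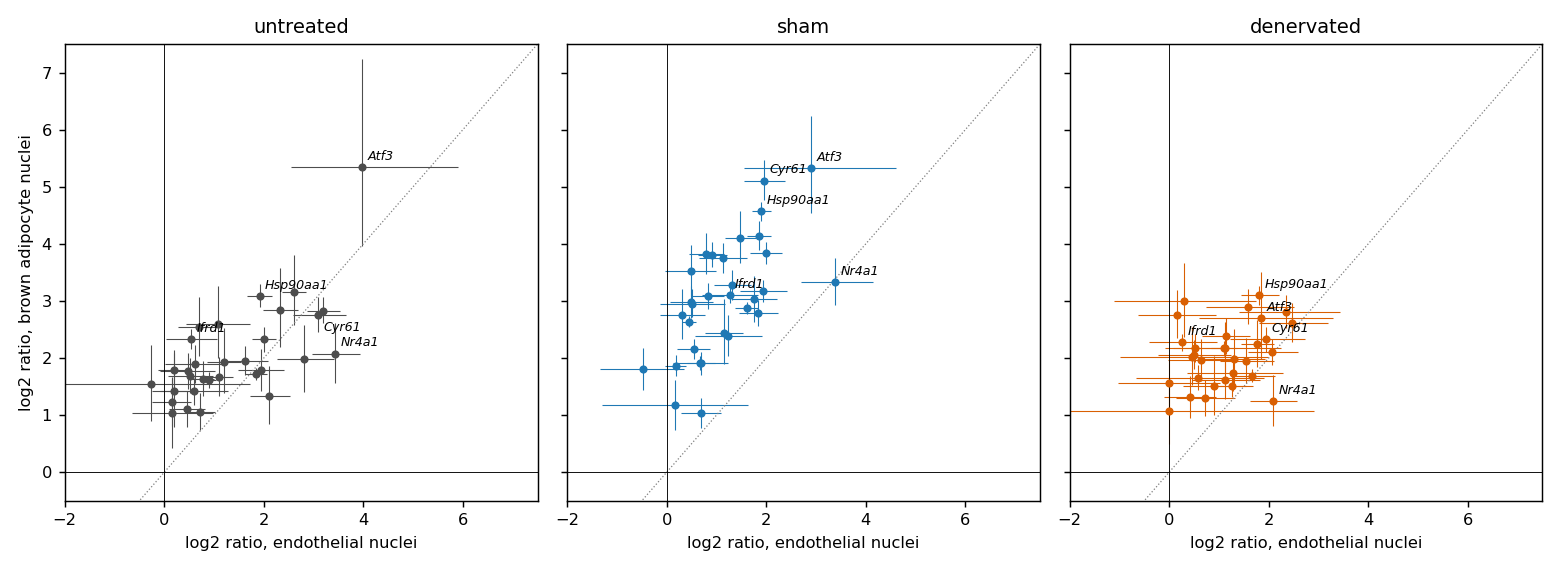
Log2 ratio of heat-shock-high nuclei over matched nuclei without a heat shock UMI in endothelial (x axis) and brown adipocyte nuclei (y axis) for the 31 genes, by library, with exact 95% intervals and the line of equal ratios (dotted). The brown adipocyte interval lies above the endothelial one for 12, 27 and 12 of the 31 genes.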

How the data were processed

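Nuclei of brown adipose tissue were profiled on the BD Rhapsody platform in 3 libraries, untreated, sham and denervated, with 1 library for each group. The deposited tables hold UMI counts of each gene in each barcode, made by the authors with the BD Rhapsody pipeline 1.9, GRCm38 and GENCODE M19 per the file headers of the untreated and denervated tables. The sham table has no header, so its pipeline is not given in the sources used here, and the submitters' notes also name GRCh38 and Seurat 4.0.6. The denervated table's header has a run name with "nKO", unlike its label. Barcodes were kept as deposited apart from the limits in the report, and 0 columns were left out. In the counts used here doublets were treated only by the study's sorting gate before loading, and no doublet caller was run. The study's own analysis also removed debris, ambient RNA, contaminating clusters and, as doublets, nuclei with markers of several cell types. Those steps were not repeated here.

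Scripts in Python 3.11.15 with numpy 2.4.6, scipy 1.17.1 and pandas 2.3.3 summed counts over nuclei. Heat-shock-high and comparison nuclei were drawn to equal numbers in bins of 0.1 in log10 UMIs (seed 1). Ratios carry exact conditional binomial intervals, CPM exact Poisson intervals and shares Clopper-Pearson intervals at 95%. Groups could not be tested with 1 library each, and no test over the 3 libraries was made between kinds of nuclei, which were chosen on the same counts. The scripts were tested on simulated data. Depth per library is given in the report.

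The members and gene lists were chosen with earlier results of these data known. Named genes were the 4 of the rule, the 15 with the highest minimum and the 15 with the lowest maximum log2 ratio over libraries, and of each list those called in all 3 libraries, the 4 with the most UMIs and every chaperone above the minimum. Others are marked as chosen later. Gene positions are from the GENCODE annotation of GRCm38. Alternatives changed the limits on nuclei, the matching, the comparison group, the UMI minimum and the normalisation. Some genes are not reported here.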

Additional observations from a re-analysis of the deposited data

Results flagged for a closer look

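A gene group, or a gene that the naming rule chose or that was named later with values in all libraries, is given here where its log2 ratio of heat-shock-high over matched brown adipocyte nuclei without a heat shock UMI lay above 0 in 1 library and below 0 in another, with both intervals clear of 0. With 1 library a group, none of these differences between libraries was tested, and the intervals cover counting error only.

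Of the metabolic genes, Pck1, which feeds glycerol into triglycerides, had log2 ratios of 0.36 in the untreated, 1.27 in the sham and -0.26 in the denervated library. Acaca, which commits acetyl-CoA to fatty acid synthesis, had 0.34, 0.31 and -0.11. Fasn, the next enzyme of that pathway, had -0.28, 0.12 and -0.53. Cidea, a lipid droplet protein of brown adipocytes whose UMIs entered the selection, had 0.25, -0.73 and -0.25.

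Of the nuclear RNAs, Kcnq1ot1 had -0.36 in the untreated and 0.95 in the sham library, and Neat1 had -0.20, -0.33 and 0.13. The summed nuclear long non-coding RNAs had -0.040 in the untreated and 0.23 in the denervated library.

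Of the markers of other cell types, pericyte genes had -1.12, -0.23 and 0.38, and smooth muscle genes had -1.70 in the untreated and 1.63 in the sham library.

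The remaining differences were small. The mitochondrial RNA mt-Atp6 had -0.11, -0.045 and 0.13, the summed mitochondrial RNAs -0.059 in the sham and 0.17 in the denervated library, and the ribosomal protein genes -0.073 in the sham and 0.082 in the denervated library.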

How the results depend on the processing

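No called value changed sign under the alternatives run. The 31 genes higher in all 3 libraries became 52 without matching (29 of the 31 shared), 52 with at least 40 UMIs (31 shared) and 19 without nuclei holding a marker UMI of other cell types (18 shared, 1012 genes compared). With at least 500 genes there were 32 (26 shared), at a limit of 0.8% 31 (26 shared) and against all other brown adipocyte nuclei 31 (25 shared). Gnai1, Irf1 and Uap1 were lost in each of the latter settings, whether short of 2-fold or under the minimum. The 2 lower genes became 17 without matching, 9 with at least 40 UMIs, 5 without the sham library, 4 with ambient RNA subtracted at a fraction of 0.1, 1 against all other brown adipocyte nuclei, and 0 as a mean over nuclei, without other markers or without white adipocyte marker nuclei. They were 2 at a limit of 0.8% and 3 with at least 500 genes, with 0 of the original 2 shared in both.

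The share of heat-shock-high nuclei, 12.95%, 30.2% and 17.0%, became 7.98%, 22.9% and 9.09% at a limit of 0.8%, 11.9%, 28.5% and 10.7% after thinning, and 19.0%, 25.6% and 18.5% without other markers. It became 23.9% without white adipocyte marker nuclei in the sham library and 14.7% with at least 500 genes in the denervated library. The chaperone median was 1.26, 2.19 and 1.898 at a limit of 0.8% and 1.30, 2.65 and 1.87 without other markers. In the sham library it was also 2.06 with at least 500 genes, 1.83 without white adipocyte marker nuclei, 1.24 against all other brown adipocyte nuclei, 1.09 at 10% mitochondrial UMIs, 0.68 without matching and 0.65 with at least 40 UMIs. These medians cover the genes that passed under each setting, and the cause of each change was not tested. The settings without white adipocyte markers or the sham library were chosen after seeing the data. For single genes, the smallest log2 ratio over the libraries was followed for the 31 higher genes and the largest for the 15 that stayed lowest. Of these values, 420 stayed on the same side of the 2-fold limit, 24 no longer reached it and 10 newly did. Genes that fell under the minimum are not counted here, and other named genes were not followed in this way.

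No paired analysis was possible because the groups, with 1 library each, share only 1 replicate number, and no result comes from a test. The ratios themselves were taken within each library. Depth limits low genes such as heat shock factors, and differences between libraries have no replicate check.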
